A study of Mus musculus with 6 samples.

Results

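Art3, Trnp1, Adgrf4, Rab39b, Arl4d, Tmem200a, Tspan1 and BC051019 are 8 protein-coding genes out of 24964 gene symbols measured in the mouse uterus at mid-pregnancy. They were chosen by their FPKM values in the comparison described here, as genes whose 3 values in each group lay close together and far from those of the other group, and for the little that is described of what they do in the uterus. For that reason their differences are given as a description and without a test. RNA was sequenced from uterine tissue around the embryo implantation sites on gestation day 13, in 3 control libraries and 3 libraries labelled as a knockout of the progesterone receptor (PGR, gene Pgr) in the myometrium, the muscle wall of the uterus. The strain, the animals' age and the promoter that drove the deletion were not given in any source used here. Since the labels name no separate animals, the p-values speak only of differences among these libraries, possibly technical ones.

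The 8 genes have no known pathway in common. Art3 belongs to the ecto-ADP-ribosyltransferases, a family of membrane-anchored enzymes that attach ADP-ribose to proteins, and is itself thought to lack the activity. Trnp1 encodes a nuclear protein studied in the progenitor cells of the cortex. Adgrf4 (GPR115) is an orphan receptor of the adhesion type, a class of G protein-coupled receptors with long extracellular parts. Rab39b and Arl4d are small GTPases, molecular switches that direct membrane traffic; Rab39b is best known from neurons, and Arl4d recruits cytohesins, the exchange factors of ARF GTPases, to the plasma membrane. Tspan1 is a tetraspanin, a protein with 4 membrane passages, known from the surface of epithelia. Tmem200a is a membrane protein of unknown function, and BC051019 is known only by the name of its cDNA clone.

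Upstream sequences were looked at because 6 of the genes were lower together. RefSeq windows on GRCm38.p6 (the mm10 assembly named in the submitters' notes) were found for 8 of the 8 genes, 11 windows in all, and the 250 bases before each start were searched on both strands for 7 motifs. The motifs were the hexamer AGAACA, which progesterone, glucocorticoid and androgen receptors recognise, the palindrome of that site (GNACA and TGTNC with 3 bases between them), the estrogen receptor hexamer AGGTCA, the cyclic AMP response element TGACGTCA, the AP-1 site TGANTCA, the CArG box, which serum response factor binds in muscle genes, and the TATA box, written TATAAA. A palindromic match was counted once, and AGAACA can overlap the palindrome. The 5 windows below are shown because they carry a motif other than the TATA box, with only the first such window printed for Art3. Capitals mark those motifs, and the TATA box is left in lower case. All 5 belong to genes that were lower in the libraries labelled deficient, as were 6 of the 8 genes. The share of all genes with any motif other than the TATA box was not counted, so nothing is read from that direction. The windows are written 5′ to 3′ on the strand of the gene.
Art3, first of its 3 starts, chr5:92331577-92331826, plus strand: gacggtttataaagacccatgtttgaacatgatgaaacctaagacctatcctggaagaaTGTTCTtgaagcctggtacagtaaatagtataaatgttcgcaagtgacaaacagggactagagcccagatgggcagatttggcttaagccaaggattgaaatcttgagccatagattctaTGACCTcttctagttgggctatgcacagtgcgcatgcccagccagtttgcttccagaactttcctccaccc
Adgrf4, chr17:42692285-42692534, minus strand: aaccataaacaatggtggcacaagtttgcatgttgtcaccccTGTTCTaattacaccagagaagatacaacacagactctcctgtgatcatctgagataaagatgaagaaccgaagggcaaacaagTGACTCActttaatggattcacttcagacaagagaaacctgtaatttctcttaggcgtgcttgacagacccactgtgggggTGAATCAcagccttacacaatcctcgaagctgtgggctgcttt
Rab39b, chrX:75578232-75578481, minus strand: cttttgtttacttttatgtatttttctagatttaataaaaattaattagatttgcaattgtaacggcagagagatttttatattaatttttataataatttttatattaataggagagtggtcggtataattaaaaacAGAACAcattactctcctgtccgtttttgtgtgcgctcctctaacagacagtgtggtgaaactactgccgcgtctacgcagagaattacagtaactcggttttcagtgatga
Arl4d, chr11:101665291-101665540, plus strand: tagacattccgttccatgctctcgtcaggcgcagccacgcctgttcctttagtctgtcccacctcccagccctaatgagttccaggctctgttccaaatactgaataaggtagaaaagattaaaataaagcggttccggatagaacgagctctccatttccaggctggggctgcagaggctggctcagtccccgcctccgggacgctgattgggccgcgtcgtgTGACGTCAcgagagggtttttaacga
Trnp1, chr4:133498551-133498800, minus strand: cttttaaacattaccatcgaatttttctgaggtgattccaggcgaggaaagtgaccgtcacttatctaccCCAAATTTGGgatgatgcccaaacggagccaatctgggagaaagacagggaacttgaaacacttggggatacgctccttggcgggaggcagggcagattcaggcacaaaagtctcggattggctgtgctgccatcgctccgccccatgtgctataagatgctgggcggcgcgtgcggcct

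In the Art3 window the capitals are AGAACA read on the other strand, 191 bases before the start, and AGGTCA on the other strand, 71 bases before it. The first of these motifs stood 208 bases before the start of Adgrf4, on the other strand, and 112 bases before that of Rab39b. Adgrf4 also held AP-1 sites 124 and 43 bases before its start. Arl4d held a cyclic AMP response element 26 bases before its start, and Trnp1 a CArG box 180 bases before its own. Another of the 3 starts of Art3 had AGAACA 190 bases before it. AGAACA was found in 3 of the 8 genes, against 18.2% of 27025 genes with such a window. The palindrome was in 0 of the 8 (0.44% of all genes), AGGTCA in 1 (15.8%), the cyclic AMP element in 1 (1.77%), the AP-1 site in 1 (7.82%), the CArG box in 1 (1.62%) and TATAAA in 2 (14.3%). The windows of BC051019, Tmem200a and Tspan1 held none of the 7. A match is a string of letters and not a site of binding. GC content ran from 31.6% in the window of Rab39b to 58.4% in one of Tmem200a, around a median of 52.4% over 32851 windows.

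Pgr itself was not lower in the second group, which is therefore named by its label, as the libraries labelled deficient. Pgr stood at 9.72, 8.33 and 12.1 FPKM in the controls, against 11.3, 12.4 and 7.73 FPKM in the labelled-deficient libraries. FPKM counts sequenced fragments per gene and divides them by gene length and library size. Its difference was 0.05 on the log2 scale (SE 0.19, limma adjusted p = 0.912), and its sign turned under several of the alternatives. Tissue other than muscle was included, and no source used here gives the part of Pgr that was removed, so this is a weak check, and every direction below rests on the labels. Summed FPKM ran from 357126 to 377091 per library. Low values fell on whole multiples of the worth of 1 read: with a library size of between 36700000 and 37000000 reads, between 70.5% and 73.9% of values of single-transcript genes lay within 0.05 of a whole number, against a median of at most 4.4% over other sizes. No source used here says whether that size is the true depth of each library. Over the 12500 genes averaging 1 FPKM or more, limma called 417 at an adjusted p under 0.05, 168 higher and 249 lower. That split was 218 and 211 after rescaling every library to the same sum, 123 and 391 with median-of-ratios scaling and 131 and 336 with quantile normalization. Control 3 and deficient 3 stood apart from the rest of their groups, with a correlation over genes of 0.983 and 0.982 between control 3 and the other controls and of 0.976 and 0.971 between deficient 3 and the other libraries labelled deficient, against 0.992 and 0.991 between libraries 1 and 2 of each group.

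Of the 8 genes, 6 were lower in the libraries labelled deficient (Art3, Trnp1, Adgrf4, Rab39b, Arl4d and BC051019) and 2 were higher (Tmem200a and Tspan1). All 8 passed the filter of a mean of 1 FPKM, and in all 8 the groups did not overlap, as the choice of genes requires. Adgrf4, Rab39b and BC051019 were under 1 FPKM in every library labelled deficient and passed the filter only through the controls. Over all genes tested, 29% had groups that did not overlap, 20.8% with higher and 8.16% with lower values in the second group. The limma threshold was passed by 8 of the 8, where 3.34% of all genes passed, 1.34% higher and 1.99% lower. Since the comparison chose them, nothing is read from either count. The nearest values of the 2 groups were between 2.09-fold (Tspan1) and 9.32-fold (BC051019) apart on the FPKM scale.

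**Figure D1:**
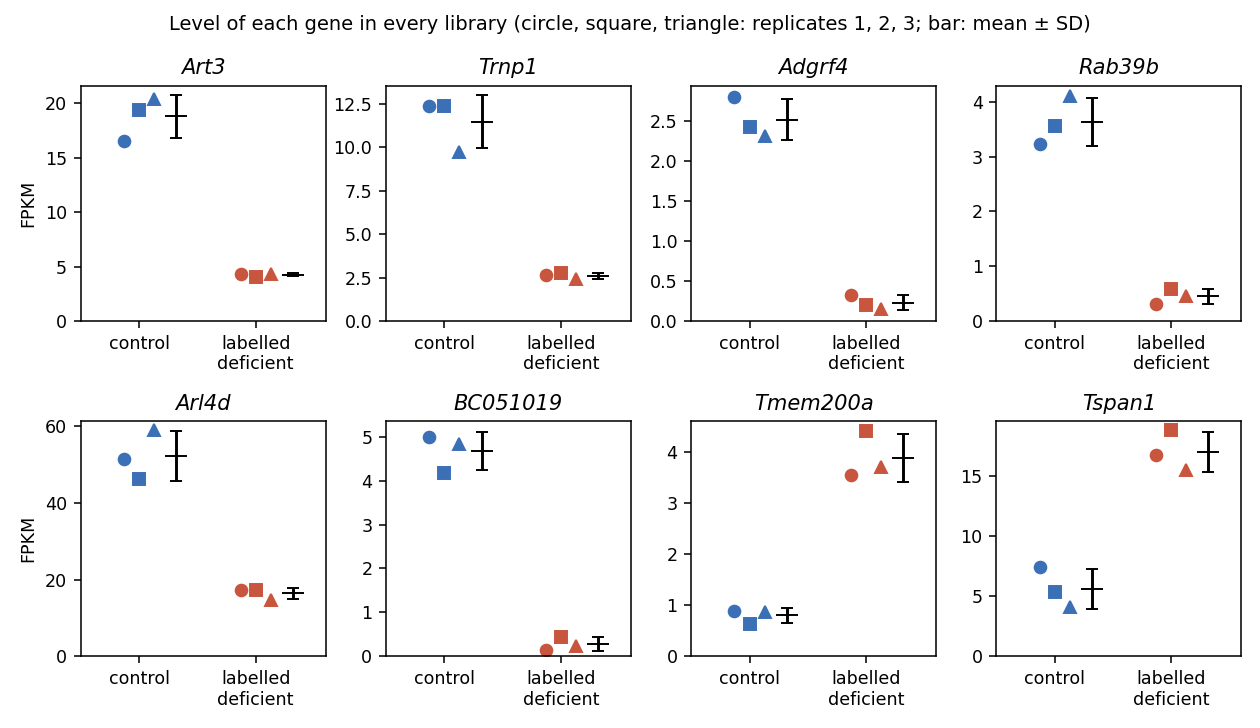
FPKM of each of the 8 genes (vertical axes, starting at 0) in the 3 control libraries (blue) and the 3 libraries labelled deficient (red), with the mean and SD in black. In 6 panels the red points lie below the blue ones, and in the panels of Tmem200a and Tspan1 they lie above.

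BC051019 had the widest gap of the 8. The gene lies on the minus strand of chromosome 7 between 109712181 and 109723850 (GENCODE M21, GRCm38), and 3 transcripts of it are annotated. It was at 4.999, 4.19 and 4.84 FPKM in the controls, against 0.14, 0.449 and 0.223 FPKM in the labelled-deficient libraries. The control values lay within a narrow band, while the low ones differed severalfold among themselves, with deficient 2 the highest. The means were 4.67 ± 0.43 and 0.271 ± 0.16 FPKM (SD, n = 3 each), 17.3-fold lower in the libraries labelled deficient. At the step found above, the low values stand for between 10 and 34 reads per library, for which counting alone gives a coefficient of variation of about 22.7%, against an observed 59.1%. The log2(FPKM + 1) difference was -2.16, and -3.77 with a pseudocount of 0.1, since a pseudocount of 1 shrinks differences of low values.

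Adgrf4, the adhesion receptor, lies on the minus strand of chromosome 17 between 42656891 and 42692284. Its level was 2.81, 2.43 and 2.31 FPKM in the controls and 0.328, 0.205 and 0.15 FPKM in the labelled-deficient libraries. The lowest control was 7.05-fold above the highest library labelled deficient. The means of 2.52 ± 0.26 and 0.228 ± 0.091 FPKM (SD, n = 3 each) were 11.1-fold apart, and the low group rested on between 17 and 37 reads per library. Its log2 difference was -1.52, or -3.03 with a pseudocount of 0.1. Rab39b, on the minus strand of chromosome X between 75572046 and 75578231, has a single annotated transcript. It was at 3.24, 3.56 and 4.10 FPKM in the controls, against 0.311, 0.585 and 0.462 FPKM in the labelled-deficient libraries. In the low group deficient 2 was the highest, as for BC051019, and between 39 and 73 reads stood behind the values. Means were 3.63 ± 0.44 and 0.453 ± 0.137 FPKM (SD, n = 3 each), 8.03-fold lower, with a log2 difference of -1.67.

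Art3 lies on the plus strand of chromosome 5 between 92331827 and 92414628 and has 19 annotated transcripts, more than any other of the 8. Its values were 16.6, 19.4 and 20.4 FPKM in the controls and 4.33, 4.08 and 4.34 FPKM in the labelled-deficient libraries. The low group varied by 3.44% of its mean, the smallest spread of either group in any of the 8 genes. From 18.8 ± 2.0 to 4.25 ± 0.15 FPKM (SD, n = 3 each), the level was 4.42-fold lower, and the log2 difference was -1.91. Trnp1, on the minus strand of chromosome 4 between 133491100 and 133498550, was at 12.4, 12.4 and 9.71 FPKM in the controls, against 2.63, 2.78 and 2.44 FPKM in the labelled-deficient libraries. The third library was the lowest of each group. Its means were 11.5 ± 1.5 and 2.62 ± 0.17 FPKM (SD, n = 3 each), 4.38-fold apart, with a log2 difference of -1.78. Arl4d, on the plus strand of chromosome 11 between 101665541 and 101667832, had the highest level of the 8 in the controls, 51.4, 46.2 and 59.1 FPKM. In the other group it stood at 17.2, 17.2 and 14.7 FPKM. The means of 52.2 ± 6.5 and 16.4 ± 1.4 FPKM (SD, n = 3 each) were 3.19-fold apart, and the log2 difference of -1.61 was -1.45 without the third library of both groups.

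Tmem200a and Tspan1 went the other way. Tmem200a, on the minus strand of chromosome 10 between 25912331 and 26079052, was under 1 FPKM in every control (0.893, 0.634 and 0.871 FPKM). It was at 3.54, 4.41 and 3.70 FPKM in the labelled-deficient libraries, so it too passed the filter only through the group in which it was high. The means of 0.799 ± 0.144 and 3.89 ± 0.46 FPKM (SD, n = 3 each) were 4.86-fold apart, and the log2 difference was 1.44, or 2.15 with a pseudocount of 0.1. Tspan1, on the minus strand of chromosome 4 between 116161869 and 116167601, was at 7.44, 5.34 and 4.12 FPKM in the controls, against 16.8, 18.9 and 15.6 FPKM in the labelled-deficient libraries. Its controls varied by 29.8% of their mean, more than the controls of any other of the 8. The means were 5.63 ± 1.68 and 17.1 ± 1.7 FPKM (SD, n = 3 each), 3.03-fold higher in the libraries labelled deficient, with a log2 difference of 1.47.

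Per length, the order of levels in the controls was Arl4d, Art3, Trnp1, Tspan1, BC051019, Rab39b, Adgrf4 and Tmem200a. The values of Tspan1 and BC051019 overlapped there, and those of the other neighbours in the order did not. In the libraries labelled deficient the order was Tspan1, Arl4d, Art3, Tmem200a, Trnp1, Rab39b, BC051019 and Adgrf4. Overlaps were found there between Tspan1 and Arl4d, between Art3 and Tmem200a, and among Rab39b, BC051019 and Adgrf4, so these neighbours could not be ordered beyond their spread.

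How sharply a gene was separated was described by the gap between the groups on the log2(FPKM + 1) scale, divided by the larger of the 2 within-group ranges. BC051019 had a gap of 1.84, the 7th widest of 12500 genes, and Art3 one of 1.72, the 12th. Adgrf4 had the highest ratio of gap to range of the 8, 6.35, which ranked 6th over all genes, and Art3 ranked 8th with 6.10. BC051019 (5.32), Rab39b (5.18), Tmem200a (4.98), Trnp1 (4.69) and Arl4d (3.96) ranked between 13th and 41st. Tspan1 differed from the other 7, with a gap of 0.97, a range of 0.72 and a ratio of 1.35, which ranked 468th. By gap Tspan1 stood 60th, with Stum (0.98) just above it and Tmem200c (0.96) just below. The median ratio over the genes whose groups did not overlap was 0.396. These ranks describe the choice of the genes and support nothing.

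**Figure D2:**
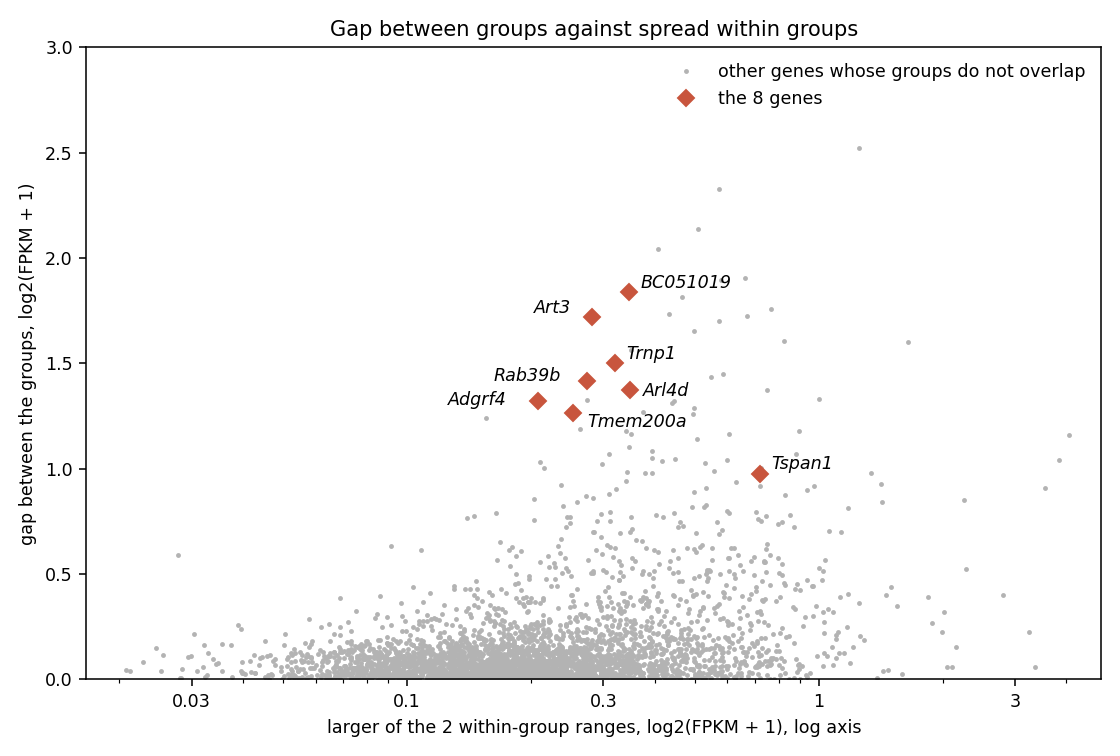
Gap between the groups (vertical axis) against the larger within-group range (horizontal log axis), both in log2(FPKM + 1), for genes whose groups did not overlap; diamonds mark the 8 genes. The other diamonds lie at gaps between 1.26 and 1.84, while Tspan1 lies at a gap of 0.97 and a range of 0.72.

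Relatives of the 8 genes were not used to choose them and were tested. Among 159 relatives in the table, 121 passed the filter; 2 rose and 2 fell by limma, 3.31% of those tested against 3.34% of all genes. One of the relatives that rose, Celsr2, entered the test only through its higher group. The median difference of the relatives was 0.01 on the log2 scale, against 0.06 over all genes tested. The number of relatives called was 0 without control 1, 1 without control 2, 2 without control 3, deficient 1 or deficient 2, and 9 without the third library of both groups.

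In the TMEM200 family, the relative that passed moved opposite to Tmem200a. Tmem200c was at 9.26, 8.50 and 12.1 FPKM in the controls, against 1.99, 3.10 and 3.89 FPKM in the labelled-deficient libraries, and fell by 1.47 on the log2 scale (SE 0.20, limma adjusted p = 0.0196). The groups did not overlap, and control 3 and deficient 3 were the highest of each. Its call was lost without control 1 (limma adjusted p = 0.084), control 2 (0.0677), control 3 (0.0519) or deficient 2 (0.067), and with no filter (0.094). Tmem200b, the remaining member, was at between 6.75 and 7.47 FPKM in the controls and between 6.14 and 8.12 FPKM in the labelled-deficient libraries (limma adjusted p = 0.976). Both relatives stood above Tmem200a in every control.

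The ARF-like GTPases closest to Arl4d also split. Arl4c, which shares with Arl4d the recruitment of cytohesins, was at 18.8, 23.9 and 20.9 FPKM in the controls, against 44.4, 35.4 and 43.0 FPKM in the labelled-deficient libraries. It rose by 0.92 on the log2 scale (SE 0.12, limma adjusted p = 0.0174), with every library labelled deficient above every control. Its call was lost without control 1 (limma adjusted p = 0.072), control 3 (0.0515) or deficient 1 (0.0709), with no filter (0.0746) and with the replicate number as a block (0.0883). Arl4a was at 7.004, 6.93 and 5.96 FPKM and at 4.24, 4.82 and 4.89 FPKM, a difference of -0.43 that did not pass (limma adjusted p = 0.0516) and that passed without control 3 (0.0493), with array weights (0.00849), with median-of-ratios scaling (0.0199) or quantile normalization (0.0201). Of 23 ARF and ARF-like GTPases tested, 1 rose and 0 fell, and 6 had an unadjusted p under 0.05. Of the 4 cytohesins, 0 passed, and 0 had an unadjusted p under 0.05; their summed level was between 58.4 and 65.2 FPKM in the controls and between 61.1 and 68.0 FPKM in the labelled-deficient libraries.

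Among 27 tetraspanins tested beside Tspan1, 0 rose and 1 fell, and 9 had an unadjusted p under 0.05. The gene that fell was Tspan2, a tetraspanin studied in oligodendrocytes, from 24.0, 23.1 and 20.4 FPKM to 10.6, 14.0 and 10.9 FPKM (log2 difference -0.88, SE 0.12, limma adjusted p = 0.0185). All controls of Tspan2 lay above all libraries labelled deficient, opposite to Tspan1. The call was lost without control 1 (limma adjusted p = 0.0888), control 2 (0.0832) or deficient 1 (0.0709), with no filter (0.079) and with the replicate number as a block (0.0571).

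The other adhesion receptors of the ADGRF group gave no such difference as Adgrf4. Adgrf1 was at between 10.99 and 17.0 FPKM in the controls and between 14.5 and 19.3 FPKM in the labelled-deficient libraries (limma adjusted p = 0.513). Adgrf5, a receptor known from endothelium and lung, was at between 7.80 and 9.502 FPKM and between 8.61 and 10.8 FPKM (limma adjusted p = 0.488). Adgrf2 and Adgrf3 did not exceed 0.026 FPKM in any library and were not tested. Of 15 adhesion receptors tested beside Adgrf4, 1 rose and 0 fell, and 3 had an unadjusted p under 0.05. Celsr2, a cadherin-like receptor of planar cell polarity, was the one that rose, from 0.916, 0.735 and 0.829 FPKM to 1.83, 3.72 and 2.45 FPKM (log2 difference 0.97, SE 0.19, limma adjusted p = 0.0475). All its controls were under 1 FPKM, so it passed the filter only through the group in which it was high. Of the 6 fits that leave out a library, its call stood in the one without deficient 1 and was lost in the others (limma adjusted p up to 0.17), as it was with no filter (0.143), with the block (0.125) and without the third libraries (0.0819).

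Of 46 Rab GTPases tested beside Rab39b, limma called 0, and 5 had an unadjusted p under 0.05. Rab39, the closest relative of Rab39b, lay between 0.165 and 0.246 FPKM in the controls and between 0.201 and 0.246 FPKM in the labelled-deficient libraries, under the filter. Of the 3 genes of the complex of C9orf72, with which Rab39b works in autophagy, 0 passed and 2 had an unadjusted p under 0.05. For Art3, 5 other ecto-ADP-ribosyltransferases were in the table and all were under the filter. Art5 stayed at or under 0.697 FPKM in every library, and Art4 was at 0.034, 0.194 and 0.239 FPKM in the controls, against 0.251, 0.617 and 1.26 FPKM in the labelled-deficient libraries. In the controls Art3 was therefore the only member of its family above 1 FPKM. Tmf1, the protein from whose partnership Trnp1 has its name, was at between 5.14 and 5.77 FPKM and between 5.13 and 5.93 FPKM (limma adjusted p = 0.98).

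**Figure D3:**
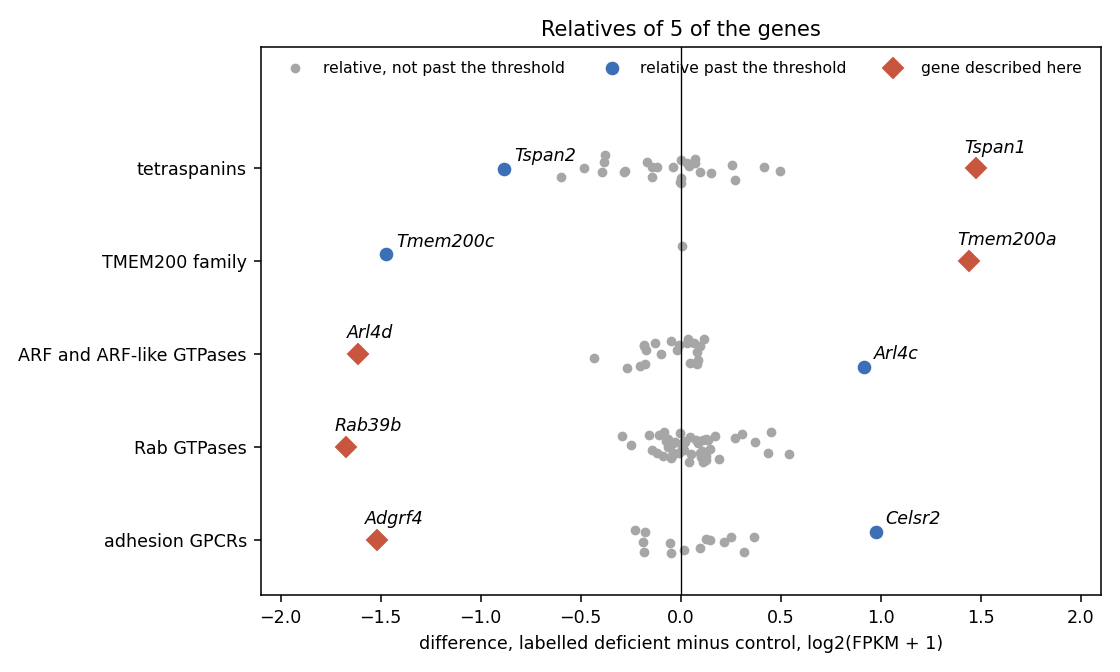
Difference between the groups (horizontal axis, log2(FPKM + 1), labelled deficient minus control) for relatives of 5 of the genes; diamonds are the genes described here, blue points relatives past the limma threshold and grey points the rest, spread vertically at random within a row. In the rows of Tmem200a, Tspan1, Arl4d and Adgrf4 the blue relative lies on the other side of 0 from the diamond.

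The genes beside each of the 8 on the chromosome were examined next, 3 on each side. Of 48 such genes, 30 were tested, and 2 rose and 1 fell, 10% against 3.34% of all genes. Their median difference was 0.05 on the log2 scale, close to that of all genes, and 7 had an unadjusted p under 0.05. With 1 library left out, the number called was between 0 (without control 1, control 2 or deficient 1) and 4.

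The gene that fell lay beside Trnp1. Tent5b, of a family of poly(A) polymerases, ends 3162 bases from Trnp1 (chromosome 4, 133480132 to 133487938). It was at 17.0, 14.4 and 11.2 FPKM in the controls, against 3.62, 5.46 and 2.29 FPKM in the labelled-deficient libraries, and fell by 1.70 on the log2 scale (SE 0.26, limma adjusted p = 0.0269). The fall was of a size with that of Trnp1, at 1.78, and control 3 and deficient 3 were the lowest of their groups for both genes. The call of Tent5b was lost without control 1 (limma adjusted p = 0.113), control 2 (0.109) or deficient 1 (0.1), and with no filter (0.111). Kdf1, an epithelial differentiation gene on the other side of Trnp1 at a distance of 20413 bases, rose instead, from 6.57, 6.64 and 6.35 FPKM to 9.22, 8.47 and 8.46 FPKM (log2 difference 0.37, SE 0.06, limma adjusted p = 0.032). Of the 6 fits that leave out a library, its call stood in the one without deficient 3 and was lost in the others (adjusted p up to 0.132), and with median-of-ratios scaling (0.0559), quantile normalization (0.0619), no filter (0.0517) and the replicate number as a block (0.105).

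Beside Tspan1, the second gene to the right, Pik3r3, a regulatory subunit of phosphoinositide 3-kinase at a distance of 54017 bases, rose from 2.50, 2.44 and 2.88 FPKM to 4.28, 4.46 and 5.17 FPKM (log2 difference 0.64, SE 0.09, limma adjusted p = 0.0196). Its call was lost without control 1 (limma adjusted p = 0.0985), control 2 (0.0865), deficient 1 (0.0607) or deficient 2 (0.0645), and with no filter (0.0709). Pomgnt1, which ends 2020 bases from Tspan1, had means of 22.2 and 20.4 FPKM (limma adjusted p = 0.471), and Lurap1 on the same side had means of 1.46 and 1.09 FPKM (0.333). Around the other 6 genes 0 neighbours passed. Vbp1 and 4933407K13Rik beside Rab39b had limma adjusted p of 0.372 and 0.17, Rdm1 and Dhx8 beside Arl4d 0.764 and 0.295, and Akip1 beside BC051019 0.452. The adjoining genes Opn5 and Adgrf2 at Adgrf4, Cxcl9 at Art3, 4930401C15Rik and Gm9767 at Tmem200a, 1700042G07Rik at Tspan1 and Ascl3 at BC051019 were under the filter.

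**Figure D4:**
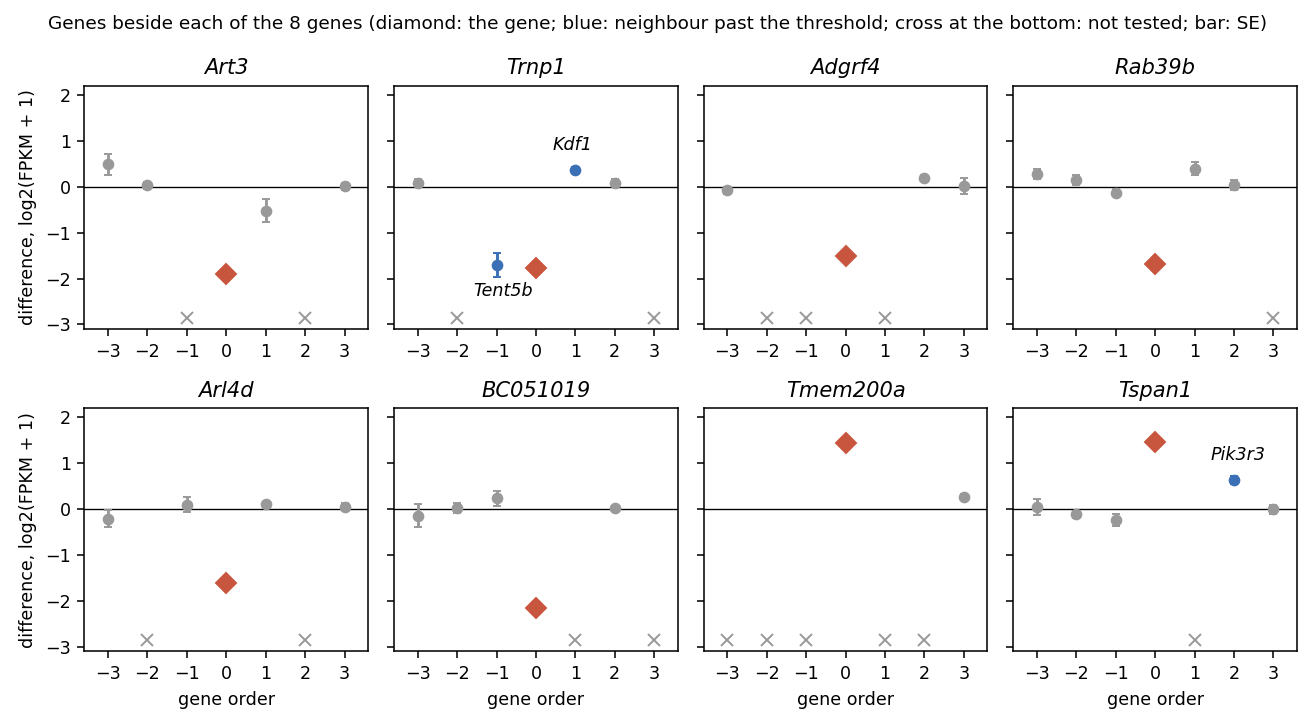
Difference between the groups (vertical axes, log2(FPKM + 1)) for each of the 8 genes (diamond, at 0) and the 3 genes of the table on either side of it in chromosome order (horizontal axes); bars are standard errors, blue points passed the limma threshold and crosses mark genes under the filter. Of the tested neighbours drawn, Tent5b beside Trnp1 is the one that lies more than 1 from 0.

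Some of the 8 overlap other genes, and no source used here says whether strand was kept. Exons of Art3 share 133 bases with those of Cxcl10, a chemokine gene on the opposite strand that lies inside the span of Art3. Cxcl10 had a mean of 3.39 FPKM in the controls and 2.04 FPKM in the labelled-deficient libraries and did not pass (limma adjusted p = 0.296), so its level was under that of Art3 in both groups. Exons of Rab39b share 634 bases with the antisense gene Gm15063, which was not analysed here. Tmem200a shares 798 bases with Gm9767 on the opposite strand, listed at 0 in the controls and at a mean of 0.0533 FPKM in the labelled-deficient libraries. BC051019 shares 9 bases with Akip1, which was at a mean of 7.29 and 8.69 FPKM. Arl4d, Trnp1, Tspan1 and Adgrf4 overlap no other annotated gene.

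The genes most like each of the 8 were named by the Pearson correlation of log2(FPKM + 1) over the 6 libraries. All 6 libraries and the split into groups are shared by every pair, so these values are high by construction and are given as a description. Trnp1 was most like Hspb1, a small heat shock protein (r = 0.999, means of 562.7 and 187.5 FPKM), and Tpm2, a tropomyosin (0.997). Art3 was most like the matrix protein gene Prelp (0.997) and Tmem120a (0.995). For Adgrf4 these were Gnaz, a G protein alpha subunit (0.996), and the T-type calcium channel gene Cacna1h (0.996), and for Rab39b the prostacyclin synthase gene Ptgis (0.997) and fibronectin, Fn1 (0.996). BC051019 was most like the perlecan gene Hspg2 (0.997) and Fn1 (0.996), and Arl4d most like Tacc1 (0.997) and Ces2g (0.995). On the rising side, Tmem200a was most like Dhx9 (0.999) and Stk11 (0.997), and Tspan1 most like Mbtd1 (0.999) and Zdhhc20 (0.996). The genes like Tspan1 and Tmem200a moved little, between 0.13 and 0.29 on the log2 scale, so the likeness is one of pattern over the libraries and not of size. Differences of the genes like the 6 lower ones ran from -0.33 (Tmem120a, like Art3 at -1.91) to -2.02 (Fn1, like Rab39b at -1.67 and BC051019 at -2.16).

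Markers of some of the cell types in the tissue were lower in the libraries labelled deficient, as 6 of the 8 genes were. In these libraries of whole tissue, fewer cells of a type and less RNA per cell cannot be told apart. All 13 smooth muscle markers fell by limma, among them Tpm2 (-1.39, adjusted p = 0.0022), Actg2 (-2.24, 0.00304), Des (-1.52, 0.00441) and Tagln (-1.17, 0.00612). With no filter, Actg2 and Tagln did not pass (limma adjusted p = 0.0517 and 0.13). The summed level of the list was between 8958 and 10868 FPKM in the controls and between 3662 and 4292 FPKM in the labelled-deficient libraries, 2.58-fold lower. Each of the 6 lower genes fell by more than that sum, between 3.19-fold (Arl4d) and 17.3-fold (BC051019), but the markers of the list differed among themselves. The 6 were chosen for groups far apart in these same values, so nothing is read from this or from the mast cell comparison below. On the log2(FPKM + 1) scale, which shrinks differences of low values, Actg2 (-2.24) fell by more than any of the 6, of which BC051019 fell furthest (-2.16). That order depended on the pseudocount. With one of 0.1, BC051019 (-3.77), Adgrf4 (-3.03) and Rab39b (-2.78) fell by more than Actg2 did under any alternative (-2.36 at the furthest). Art3 (-2.11), Trnp1 (-2.08) and Arl4d (-1.66) did not. Of the mast cell markers, 4 of 5 tested fell (Mcpt4, Tpsb2, Cpa3 and Cma1), and the sum of 7 was between 28.8 and 35.5 FPKM and between 3.00 and 5.31 FPKM, 7.45-fold lower. Most of that sum lay in the controls, so the markers that fell passed the filter mainly through the group in which they were high. Of the 6 lower genes, Rab39b (8.03-fold), Adgrf4 and BC051019 fell by more than this sum and Art3, Trnp1 and Arl4d by less. In the list of neuron and Schwann cell markers only Uchl1 was tested and it fell (-1.22, limma adjusted p = 0.00917). Of the other genes in that list, Sox10, Tubb3 and Elavl4 did not exceed 0.142 FPKM in any library. Markers of the decidua, the transformed stroma of pregnancy, summed to between 78.1 and 376.8 FPKM in the controls against between 19.6 and 47.8 FPKM, 6.97-fold lower. Of these, limma called 0 of the 4 tested, and 2 had an unadjusted p under 0.05. Of the skeletal muscle markers, 3 of 5 tested fell, with sums between 144.9 and 230.1 FPKM against between 54.6 and 63.6 FPKM, 3.33-fold lower. Of 6 pericyte markers tested, 2 fell, Kcnj8 (-0.50, limma adjusted p = 0.0137) and Cspg4 (-0.56, 0.0383), both of them lost without control 1, control 2, deficient 1 or deficient 2 (Kcnj8 up to 0.0665, Cspg4 up to 0.147) and Cspg4 also without deficient 3 (0.0655). The other 4 did not pass. The pericyte list as a whole was not lower, with sums between 135.5 and 137.3 FPKM in the controls and between 130.1 and 143.3 FPKM in the labelled-deficient libraries. Over all marker lists, 3 of 81 genes tested rose and 23 fell, 32.1% in all, and the number called was 12 without control 1 or control 2, 14 without deficient 1 and 17 without deficient 2. The part of any of these cell types in the lower genes was not tested.

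Epithelial and erythroid markers were higher in the libraries labelled deficient, as Tmem200a and Tspan1 were. The sum of the epithelial list was between 1088 and 1191 FPKM in the controls and between 1381 and 1741 FPKM in the labelled-deficient libraries, 1.43-fold higher. Of 14 tested, 2 rose, Krt19, a keratin of simple epithelia (1.05, limma adjusted p = 0.018), and Cdh1, E-cadherin (0.43, 0.0276), and 0 fell. Leaving out control 2 or 3, or deficient 1 or 2, ended the call of Krt19 (limma adjusted p up to 0.0777). The call of Cdh1 stood without deficient 3 and was lost on leaving out any other library (limma adjusted p up to 0.117). In the controls the epithelial sum was highest in control 3, where Tspan1 was lowest (4.12 FPKM). In the libraries labelled deficient the sum and Tspan1 were lowest in deficient 3, and Tmem200a was lowest in deficient 1 (3.54 FPKM). With 3 libraries per group these orders are a description, and nothing is read from them. The erythroid list summed to between 2.97 and 6.18 FPKM in the controls and between 13.2 and 25.6 FPKM in the second group, 4.71-fold higher, with 3 of its 6 genes listed at 0 in every library. Its 1 tested gene, Alas2, the first enzyme of heme synthesis in red cell precursors, rose (1.93, limma adjusted p = 0.0295). The call of Alas2 stood without deficient 2 and was lost on leaving out any other library (limma adjusted p up to 0.111). Tspan1 rose 3.03-fold and Tmem200a 4.86-fold, both by more than the epithelial sum, and Tspan1 by less than the erythroid sum. Both genes were chosen for groups far apart in these same values, so nothing is read from these comparisons. Markers of stromal fibroblasts summed to between 5929 and 6437 FPKM and between 5287 and 5397 FPKM, those of endothelium to between 137.9 and 147.5 FPKM and between 127.4 and 177.5 FPKM, and those of macrophages to between 911.1 and 1090 FPKM and between 958.6 and 1061 FPKM. Those of the mesothelium summed to between 33.1 and 48.8 FPKM and between 31.9 and 42.1 FPKM. In these 4 lists limma called 0 genes, with 3, 1, 0 and 0 at an unadjusted p under 0.05. Trophoblast markers stayed under 1.72 FPKM in sum in every library, with 3 of 9 listed at 0 throughout. The part of epithelial or erythroid cells in the levels of Tspan1 and Tmem200a was not tested.

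**Figure D5:**
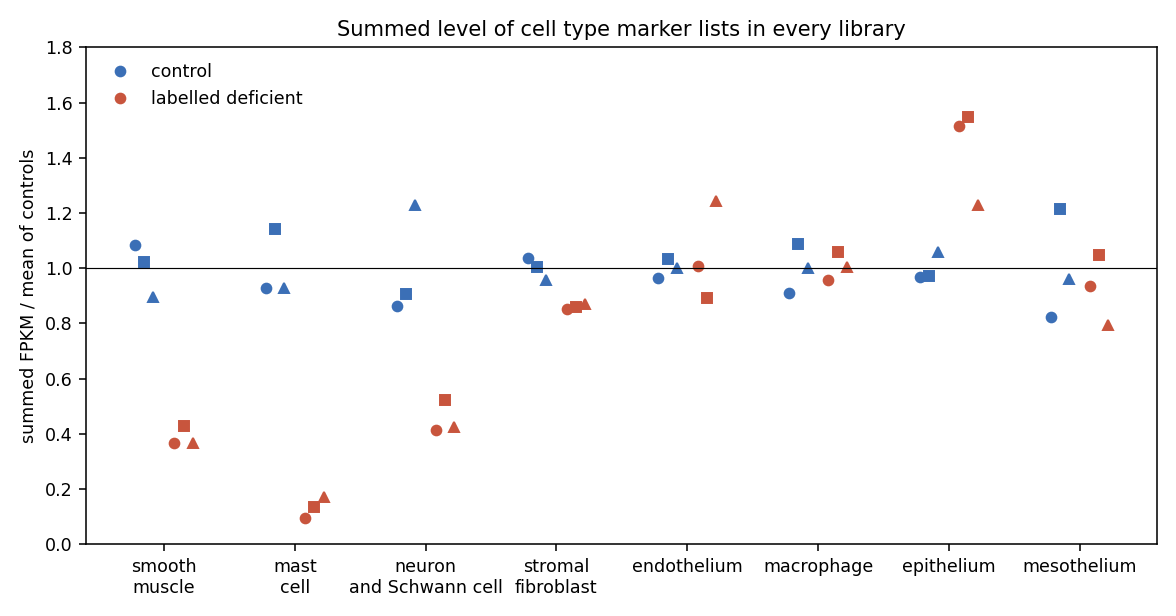
Summed FPKM of 8 marker lists in every library, divided by the mean of the controls (vertical axis, starting at 0), with controls in blue, libraries labelled deficient in red and replicates 1, 2 and 3 as circles, squares and triangles. Of the lists drawn (smooth muscle, mast cell, neuron and Schwann cell, fibroblast, endothelium, macrophage, epithelium and mesothelium), the first 4 lie below 1 in every library labelled deficient and the epithelial list above 1; the decidual, skeletal muscle and erythroid lists, which also differed, are not drawn.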

How the data were processed

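RNA-seq was done on 3 control and 3 labelled deficient uterine samples of gestation day 13, extracted with TRIzol per the labels' protocols. The authors deposited FPKM values for 24964 gene symbols, 1 column per sample, rounded to 3 decimals; all 6 columns matched a sample by name. Build mm10 and the tools STAR 2.7.0f, cutadapt 2.7 and DESeq2 1.24.0 are named, per the submitters' processing notes, without a role or order. No source used here gives the counting program, the annotation, the treatment of shared reads or the FPKM formula.

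Differences were fitted with limma 3.58.1 in R 4.3.3 (moderated by eBayes, trend on) using log2(FPKM + 1), labelled deficient minus control, over 12500 genes whose mean reached 1 FPKM (12464 set aside), with Benjamini-Hochberg adjustment over all of them and a threshold of 0.05. The code was tested on simulated data. Positions come from GENCODE M21 (GRCm38) and upstream windows from RefSeq (GRCm38.p6). Read numbers for the 8 genes use the longest transcript or all exons as length and are estimates.

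The 8 genes, the lists, the motifs and the tests were chosen with earlier results of these data known. Named were the 8 genes, their nearest relatives, relatives and neighbours past the threshold, the nearest neighbours, the 2 genes most like each by correlation, and up to 4 marker genes per list by p. Alternatives were pseudocounts of 0.1 and 0.5, no filter, a minimum mean of 5 FPKM, 3 other scalings, a block for the replicate number, limma without the trend or with array weights, each library left out, and the third library of both groups left out. Same-numbered libraries are not said to be paired.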

Additional observations from a re-analysis of the deposited data

How the results depend on the processing

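The log2 differences of the 8 genes kept their direction in all 132 combinations of gene and alternative. The genes were chosen for groups far apart in these same values, so nothing is read from this or from their calls below. In 115 they moved by less than the SD between replicates and in 17 by more, the latter mostly with smaller pseudocounts or after rescaling. With 1 library left out or the third of both, they stayed between -2.26 and -2.09 for BC051019, -1.99 and -1.85 for Art3, and 1.30 and 1.66 for Tspan1. Of the 8, limma called 7 with no filter and 7 without control 2, deficient 1 or deficient 2 (Tspan1 was the one not called each time), and 8 of 8 or all tested under the other alternatives. Of 35 other named genes called, 13 kept the call in every alternative and 22 lost it in at least 1.

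The number of genes called, 417, was 1770 with array weights, 192 with no filter, 1274 without the third library of both groups, and 99, 104, 130 and 185 without control 1, control 2, deficient 1 and deficient 2, within a range of 99 to 519 with 1 library left out. Of the 4 relatives called, the number was 16 with array weights, 7 with median-of-ratios scaling, 0 with no filter, 9 without the third libraries and 0 to 4 with 1 library left out. The 3 neighbours became 6 with array weights, 0 with no filter, 5 without the third libraries and 0 to 4 with 1 library left out. The 26 marker genes called became 12 with no filter and 12 to 25 with 1 library left out. The cause of these shifts was not tested.

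With the replicate number as a block, limma called 143 genes, 1 relative and 15 marker genes. Deviations of same-numbered libraries from their group means correlated at -0.14, 0.08 and -0.13, and control 1 correlated best with deficient 3 (0.15). With 3 libraries per group these values cannot settle whether the numbers pair the libraries.

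Differences near 0 changed sign. That of Pgr was -0.019 with median-of-ratios scaling, -0.0054 with quantile normalization, and -0.068, -0.015 and -0.078 without control 2, deficient 1 and deficient 2. With 1 library left out Pgr reached at most 0.232, and without the third library of both groups it was 0.361. Tmem200b was -0.014 with array weights, -0.055 and -0.058 under those 2 scalings, and between -0.082 and -0.0093 without control 1 (-0.016), control 2 or deficient 2, with a range up to 0.094 over the libraries left out. Tmf1 was 0.038 after rescaling and between 0.014 and 0.039 without control 1, control 2 (0.022) or deficient 1; with 1 library left out its lowest value was -0.049, and over all alternatives it was -0.094. Rdm1 was -0.036 without deficient 2, and at most 0.227 with 1 library left out.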
